A study of Mus musculus with 2 samples.

Results

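The matrix metalloproteases, the ADAM and ADAMTS proteases and the tissue inhibitors of metalloproteases (Timp genes) were compared between lungs of Foxm1 transgenic and wild-type mice under a chemical carcinogenesis protocol. The members are the genes that a probe of the array carries alone and whose current symbol is Mmp, Timp or Adam followed by a digit, or starts with Adamts. There were 60 such genes among 13840 named genes, of which 18 were Mmp, 27 Adam, 12 Adamts (Adamtsl genes included) and 3 Timp genes. RefSeq lists 85 protein-coding mouse genes under these symbols, and the others were not analysed here. One array was hybridised for Rosa26-Foxm1 mice, which carry a Foxm1 transgene named for the Rosa26 promoter, a promoter active in most cell types, and 1 array for wild-type mice. For each array, RNA of the left lobes of 3 mice had been combined. Both groups had been given 3-methylcholanthrene (MCA) by intraperitoneal injection at 15 µg per g body weight and then 6 weekly injections of the tumour promoter butylated hydroxytoluene (BHT), the first at 150 µg/g and the later ones at 200 µg/g. Lungs were taken 12 weeks after MCA, so there is no lung without carcinogen in the comparison. By their labels the wild-type animals were FVB/N and male, and there is no sex, strain or age given for the Rosa26-Foxm1 animals. The lungs were whole lobes, and in such bulk RNA fewer cells of a type and less RNA per cell cannot be told apart.

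All of these proteases hold a zinc ion at their catalytic centre. Matrix metalloproteases are made as inactive proenzymes, are activated outside the cell or by furin on the way out, and cut collagens, elastin, basement membrane and many secreted proteins. ADAM proteases are anchored in the membrane and release the outer part of other membrane proteins, such as growth factors and cytokine receptors, while several ADAMs lack catalytic activity and act in sperm or at synapses. ADAMTS proteases are secreted and cut proteoglycans, procollagens and microfibril-associated proteins, and ADAMTS-like proteins resemble them without a protease domain. Timp proteins bind the active site of matrix metalloproteases and block it, and Timp3 also inhibits some ADAM and ADAMTS proteases. In lung, macrophage elastase is known for the breakdown of elastic fibres, and neutrophils carry a collagenase and a gelatinase in their granules.

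Both arrays had a deposited median intensity of 1.00 over 33012 probes, with ranges of 0.0510 to 2268 on the Rosa26-Foxm1 and 0.0294 to 2820 on the wild-type array. Values below are quantile-normalised probe intensities in arbitrary units, differences are log2 of Rosa26-Foxm1 over wild type, and a value under 1.00, the median of an array, is taken as below the floor. A gene above the floor on at least 1 array was called measured. With 1 array per group there is no replicate spread and no test. The only error available is the probe SD, the error of 1 probe's log2 difference judged from pairs of probes of the same gene. It was 0.31 over 317 genes, 0.37 for the dimmer and 0.23 for the brighter pairs, and it holds no difference between mice. The single Foxm1 probe was close to the floor, at 1.23 in Rosa26-Foxm1 and 1.13 in wild-type lung, and it does not check the genotype, since whether it matches the transgene is not known here.

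Macrophage elastase, the aggrecanase Adamts4, Mmp19 and Mmp23 were higher in Rosa26-Foxm1 lung, while Adam9, Adamts10, Timp3, Adam10, Adamts8 and Mmp9 were lower. Of 29 measured members, 4 were at least 1.5-fold higher, against 7.07% of all 9518 measured genes, and 6 were at least 1.5-fold lower, against 8.45% of all measured genes. Together, 10 of 29 members (34.5%) were at least 1.5-fold apart, where 15.5% of all measured genes were. At 2-fold, 3 members were apart (3.49% of all genes), Mmp12 and Adamts4 higher (1.98% of all genes) and Adam9 lower (1.51% of all genes). Among the 15 brighter members, those over the 75th percentile of intensity on either array, 1 was at least 1.5-fold higher, against 5.24% of all such genes, and 3 were lower, against 6.55%. The median difference of the measured members was -0.19, against -0.06 over all measured genes. There were 8 members above 0 and 21 below, where 4177 of all measured genes were above and 5334 below. Of the 25 members above the floor on both arrays, 3 were higher, 6 were lower and 16 lay within 1.5-fold, and 11 of the 25 differed by no more than the probe SD. The other 4, Adamts4, Mmp13, Adam4 and Adam6a, had 1 array below the floor, so their differences are lower bounds on the size. Mmp9 at -0.60 just passed the 1.5-fold size, and Mmp8 at -0.55 just missed it.

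**Figure D1:**
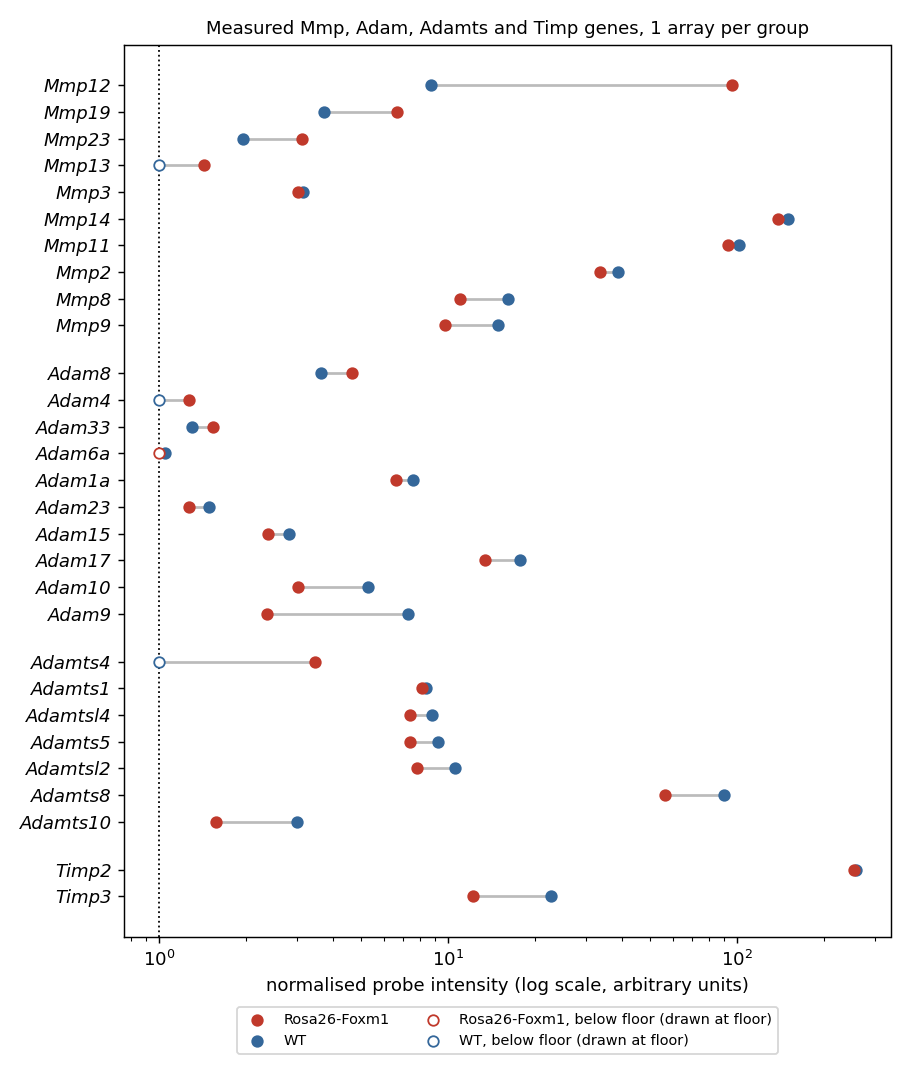
Normalised probe intensity (arbitrary units, log scale) of the 29 measured members on the Rosa26-Foxm1 array (red) and the wild-type array (blue), 1 point per array, grouped by family and sorted by difference. Open points were below the floor (dotted line at 1.00) and are drawn on it, and Mmp12 has the longest line, between 95.8 in Rosa26-Foxm1 and 8.72 in wild-type lung.

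Mmp12 (gene ID 17381), the macrophage elastase, had an intensity of 95.8 in Rosa26-Foxm1 lung, against 8.72 in wild-type lung. Its difference of 3.46 on the log2 scale (11.0-fold) ranked 5 of 9518 measured genes from the top, where genes with 1 array below the floor enter at their lower bound, and was many times the probe SD. It lay between 3.46 and 3.50 under the 7 alternative settings tried. Only the scalings could change it, since its single probe was above every floor on both arrays, and each of them gave 3.50. Other macrophage markers did not all differ in that direction. Of 9 measured macrophage markers, 3 passed 1.5-fold upward and 2 downward, with a summed intensity of 1741 in Rosa26-Foxm1 and 1202 in wild-type lung and a median difference of 0.43 (0.73 with median scaling, where 5 were higher and 3 lower). Gpnmb, a glycoprotein of lipid-laden macrophages, was at 125 against 5.86, Trem2, a lipid-sensing receptor, at 22.6 against 3.02, and Lgals3, a galectin, at 2.91 against a wild-type value under the floor. Siglecf, a lectin of alveolar macrophages, was at 6.15 against 14.7, and the scavenger receptor Marco was under the floor on the Rosa26-Foxm1 array, against 1.69 on the wild-type one. Most of each summed intensity came from Chil3 (787 against 583) and Ctss (754 against 549), both inside 1.5-fold. The remaining markers, Adgre1 and Mrc1, were at -0.56 and 0.06. The macrophage list was chosen with earlier results of these data known, so its counts are not independent of them. The part of macrophages in the Mmp12 value was not tested.

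Mmp12 lies in a run of 10 Mmp genes on chromosome 9 in which the RefSeq annotation of assembly GRCm38.p6 places no other protein-coding gene. Of the 9 that have a probe of their own, 4 were measured. The nearest neighbour on one side, the collagenase Mmp13, was at 1.43 in Rosa26-Foxm1 lung with the wild-type array under the floor, at least 1.43-fold higher. On the other side, Mmp1b was below the floor on both arrays. Mmp3, stromelysin, which cuts proteoglycans and basement membrane and activates other proenzymes, was at 3.02 in Rosa26-Foxm1 and 3.16 in wild-type lung (-0.07). Mmp8, the neutrophil collagenase, was lower at 11.0 against 16.1 (-0.55). Mmp1a, Mmp10, Mmp20 and Mmp7 were below the floor on both arrays. Mmp3 and Mmp8, above the floor on both arrays like Mmp12, differed by less than Mmp12 did, while the size of the Mmp13 difference is known only as a lower bound.

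The promoters of these neighbours are shown because many Mmp genes are known to be induced through an AP-1 site near the start of transcription. Each line gives the 120 bases before an annotated start from RefSeq (GRCm38.p6), all on the plus strand and 5′ to 3′, with the AP-1 letters TGANTCA in capitals.
Mmp12, chr9:7347254-7347373: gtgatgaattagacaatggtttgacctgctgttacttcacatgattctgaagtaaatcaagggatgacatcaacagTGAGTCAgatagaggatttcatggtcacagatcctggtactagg
Mmp13, chr9:7272394-7272513: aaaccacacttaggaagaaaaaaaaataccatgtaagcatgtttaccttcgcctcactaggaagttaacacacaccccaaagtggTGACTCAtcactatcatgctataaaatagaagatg
Mmp3, chr9:7445702-7445821: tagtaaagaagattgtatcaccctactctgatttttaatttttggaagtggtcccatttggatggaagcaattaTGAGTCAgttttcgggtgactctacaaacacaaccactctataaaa
Mmp8, chr9:7558309-7558428: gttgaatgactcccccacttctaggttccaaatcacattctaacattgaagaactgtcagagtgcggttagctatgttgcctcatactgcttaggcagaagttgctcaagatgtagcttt

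The AP-1 letters begin 44 bases before the start in Mmp12, 35 in Mmp13 and 46 in Mmp3, and Mmp8 has none in its 250 bases. Mmp12 has a further annotated start upstream whose 250 bases hold none. The log2 differences of these genes were 3.46 for Mmp12, at least 0.52 for Mmp13 and -0.07 for Mmp3. Any part of AP-1 in these values was not tested. Promoters were listed for 19 of the 29 measured members, 21 promoters in all, and the AP-1 letters (the same on both strands) occur in 3 of them within 250 bases of the start, against 6.75% of all 32851 promoters. Forkhead letters, TGTTTAC or GTAAACA on the other strand, occur in 2 of the 21, those of Mmp13 (81 bases before the start) and Adam8 (204 bases before it), against 3.17% of all promoters. ETS letters, GGAAGT or ACTTCC, occur in 6 of the 21, against 19.7% of all, and those of Mmp12, Mmp13, Mmp3 and Mmp8 do not overlap the capitals. These matches are descriptions of sequence and not sites of binding.

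**Figure D2:**
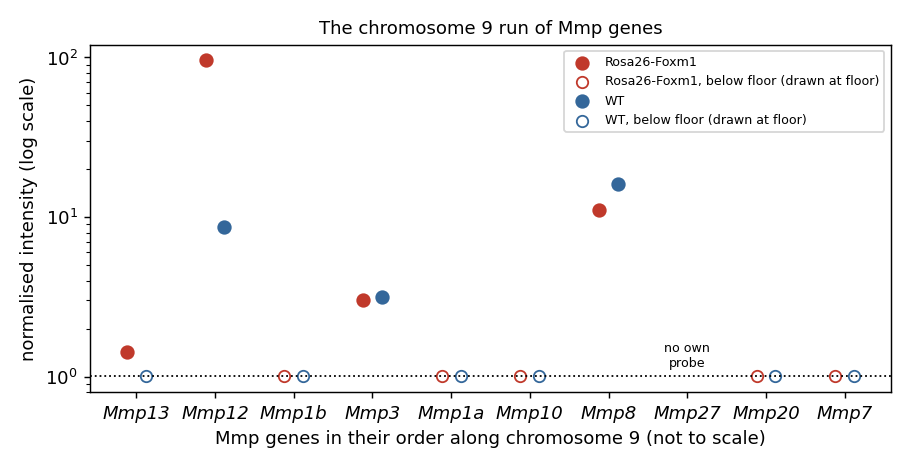
Normalised intensity (arbitrary units, log scale) of the Mmp genes in their order along chromosome 9, not to scale, with the Rosa26-Foxm1 array in red and the wild-type array in blue. Open points were below the floor (dotted line) and are drawn on it, Mmp27 had no probe of its own, and Mmp12 stands at 95.8 in Rosa26-Foxm1 and 8.72 in wild-type lung. The gap drawn for Mmp13 is a lower bound, since its wild-type value lies below the floor.

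Among the other matrix metalloproteases, Mmp19 and Mmp23 were higher and the gelatinase Mmp9 lower, while Mmp2, Mmp14 and Mmp11 differed by less than the probe SD. Mmp19 (gene ID 58223), which cuts basement membrane proteins, was at 6.68 in Rosa26-Foxm1 lung, against 3.74 in wild-type lung (0.84, 1.79-fold). Mmp23 (gene ID 26561), which is anchored in the membrane at its amino terminus, was at 3.12 against 1.96 (0.67, 1.59-fold). Both differences were over the probe SD of dimmer pairs. The gelatinases, which cut denatured collagen and basement membrane collagen, were both below 0. Mmp9 (gene ID 17395), made by neutrophils and macrophages, was at 9.80 in Rosa26-Foxm1 and 14.9 in wild-type lung (-0.60, 1.52-fold lower, and -0.56 with loess scaling). Mmp2, made mainly by fibroblasts, was at 33.7 against 38.9 (-0.21).

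Neutrophils store both Mmp8 and Mmp9, of which Mmp9 passed 1.5-fold. Of 7 measured neutrophil markers, 2 passed 1.5-fold downward and none upward (1 downward with loess scaling), with a median of -0.41 (-0.23 with median scaling) and a summed intensity of 548 in Rosa26-Foxm1 and 744 in wild-type lung. Csf3r, the receptor for granulocyte colony-stimulating factor, was at 148 against 231, and the granule protein Ngp at 1.16 against 2.81. Camp, another granule protein, was at 1.37 in Rosa26-Foxm1 lung with the wild-type array under the floor. Its difference of 0.45 is a lower bound, so whether it passed 1.5-fold upward is not known. The granule enzymes Mpo and Elane were below the floor on both arrays. The part of neutrophils in the Mmp8 and Mmp9 values was not tested.

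Mmp14, the membrane-type enzyme that activates the Mmp2 proenzyme, was at 139 in Rosa26-Foxm1 and 151 in wild-type lung (-0.12). Mmp11, a stromelysin that furin activates inside the cell, was at 93.2 against 101 (-0.12). Both differed by less than the probe SD, and Mmp14 was at 0.05 with median scaling. The median over the 10 measured Mmp genes was -0.09, and 0.02 with median scaling, so the sign of the family's median depended on the scaling. Another 8 Mmp genes were below the floor on both arrays. They were the collagenase Mmp1a, Mmp1b, the matrilysin Mmp7, the stromelysin Mmp10, the membrane-type enzymes Mmp16 and Mmp17, the enamel protease Mmp20 and Mmp21.

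ADAM proteases that shed growth factors and cytokines were lower or differed little. Adam9 (gene ID 11502), a widely expressed membrane protease, was at 2.37 in Rosa26-Foxm1 lung, against 7.26 in wild-type lung. Its difference of -1.62 (3.06-fold lower) ranked 20 of 9518 measured genes from the bottom. The difference ran from -1.65 to -1.57 under the 6 alternatives that gave it a value, of which only the scalings could change it. Adam10 (gene ID 11487), the sheddase of Notch receptors and cadherins, was at 3.03 against 5.29 (-0.80, 1.74-fold lower). Adam17, the enzyme that releases tumour necrosis factor and several ligands of the EGF receptor, was at 13.5 against 17.8 (-0.41), over the probe SD but inside 1.5-fold. All of these rest on 1 probe each.

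Adam8, an enzyme of leukocytes, had the highest log2 difference of the ADAM genes above the floor on both arrays, with 4.67 in Rosa26-Foxm1 and 3.65 in wild-type lung (0.36). Adam33, known from airway smooth muscle and fibroblasts, was at 1.55 against 1.30 (0.25), and Adam15 at 2.39 against 2.83 (-0.24), both within the probe SD. Of this group, Adam12, Adam19 and Adam28, were below the floor on both arrays. Adam23, a synaptic ADAM without catalytic activity, was close to the floor, at 1.27 against 1.49, and its probes gave -0.23 and -0.24.

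The ADAM genes known mainly from testis were mostly not measured. Of 15 with a probe of their own, 3 were above the floor on an array, against 68.8% of all named genes. Adam1a was at 6.64 in Rosa26-Foxm1 and 7.58 in wild-type lung (-0.19) by 1 probe. Its other probe was under the floor throughout. Adam4 was just above the floor in Rosa26-Foxm1 lung only, at 1.27, and Adam6a just above it in wild-type lung only, at 1.05. The 12 below the floor were Adam2, Adam3, Adam5, Adam7, Adam18, Adam21, Adam24, Adam25, Adam26a, Adam29, Adam30 and Adam32. So were the catalytically inactive Adam11 and Adam22.

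In the ADAMTS family the aggrecanase Adamts4 was higher, and the other measured members were all below 0. Adamts4 (gene ID 240913), which cuts aggrecan and versican, was at 3.47 in Rosa26-Foxm1 lung, and in wild-type lung it lay just below the floor. It was at least 3.46-fold higher, and it counts as measured through the Rosa26-Foxm1 array alone. Adamts5, the other main aggrecanase, was at 7.41 in Rosa26-Foxm1 and 9.24 in wild-type lung (-0.32). Adamts1, which also cuts versican, was at 8.11 against 8.40 (-0.05).

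Adamts8 (gene ID 30806), an ADAMTS gene known to be expressed in lung, was at 56.3 in Rosa26-Foxm1 lung, against 89.8 in wild-type lung (-0.67, 1.59-fold lower). A dimmer probe for it was at 1.43 against 1.89 (-0.41), the same direction and a smaller size, and the median of both probes, -0.54, was inside 1.5-fold. Adamts10 (gene ID 224697), which binds the microfibril protein fibrillin, was at 1.58 against 3.01 (-0.93, 1.91-fold lower). Of the ADAMTS-like proteins of microfibrils, Adamtsl2 was at 7.83 against 10.6 (-0.43) and Adamtsl4 at 7.37 against 8.84 (-0.26). Adamts3, Adamts12, Adamts16, Adamts19 and Adamts20 were below the floor on both arrays. The median over the 7 measured genes was -0.32, and between -0.34 and -0.28 under the other scalings.

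Of the inhibitors, Timp3 was lower and Timp2 differed by less than the probe SD. Timp3 (gene ID 21859), which is held in the matrix and also inhibits Adam17 and the aggrecanases, was at 12.2 in Rosa26-Foxm1 lung, against 22.7 in wild-type lung (-0.90, 1.87-fold lower). That ranked 218 of 9518 genes from the bottom. The difference ran from -0.90 to -0.86 over 7 alternatives, of which only the scalings could change it. Timp2, which takes part in the activation of Mmp2 by Mmp14 as well as in inhibition, was at 255 against 257 (-0.01, and 0.20 with median scaling). Timp4 was under the floor throughout, and Timp1 was not analysed here.

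**Figure D3:**
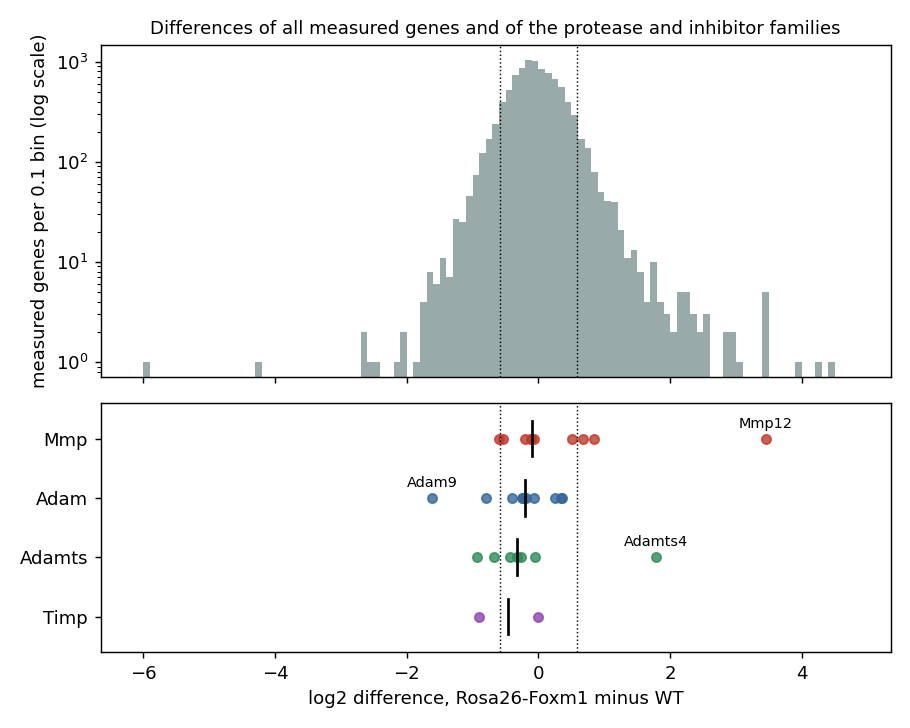
The upper panel counts all 9518 measured genes by log2 difference (Rosa26-Foxm1 minus wild type, 0.1 per bin, log scale), and the lower panel shows the 29 measured members by family, with family medians as black bars and dotted lines at 1.5-fold. Mmp12 at 3.46, Adamts4 at 1.79 (a lower bound) and Adam9 at -1.62 are the members past 2-fold.

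Other genes of the proteolytic system were mostly below 0 and few passed 1.5-fold. The pathway and marker lists, chosen with earlier results of these data known, are to be read beside all 9518 measured genes. Of those, 5334 were below 0, 7.07% were at least 1.5-fold higher and 8.45% lower. Of 16 listed activators and other inhibitors, 6 were measured, with a median of -0.27, none at least 1.5-fold higher and 1 lower. That gene was Reck, a membrane-anchored inhibitor of several matrix metalloproteases, at 16.0 in Rosa26-Foxm1 and 27.4 in wild-type lung (-0.78). The plasminogen activator Plat (-0.39) and the proprotein convertase Furin (-0.34), which activates many of these enzymes, were next, the receptor Lrp1 was at -0.20, and Bsg, an inducer of matrix metalloproteases, was at 0.08. The urokinase gene Plau was just above the floor in Rosa26-Foxm1 lung only.

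Of 19 listed proteins that ADAMs shed or that assist ADAM10 and ADAM17, 13 were measured, with a median of -0.10, none higher and 2 lower at 1.5-fold (1 lower with loess scaling). These were the interleukin receptor Il6ra, at 4.83 in Rosa26-Foxm1 and 8.33 in wild-type lung (-0.79), and Tnf, at 1.84 against 2.76 (-0.59). Rhbdf1, a rhomboid-like partner of Adam17, was at -0.50, while its relative Rhbdf2 was at -0.06. The EGF receptor ligands Btc (0.26), Ereg (0.10) and Hbegf (0.08) were within the probe SD.

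Of 18 listed matrix proteins that these enzymes cut, 12 were measured, with a median of -0.29, none higher and 3 lower at 1.5-fold. Biglycan, Bgn, a small proteoglycan, was at 45.2 in Rosa26-Foxm1 and 80.3 in wild-type lung (-0.83). The basement membrane collagens Col4a2 and Col4a1 were at -0.77 and -0.60. Elastin, Eln, the substrate of macrophage elastase, was at 8.44 against 10.2 (-0.28), and decorin, Dcn, at -0.05. Von Willebrand factor, Vwf, was the 1 member above 0, at 0.49.

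Markers of endothelial cells were mostly lower, and those of fibroblasts and smooth muscle were mostly below 0. Of 10 endothelial markers, all measured, 7 were at least 1.5-fold lower and none higher (5 lower with median scaling). Their median was -0.84 and their summed intensity 1284 in Rosa26-Foxm1 and 2131 in wild-type lung. Pecam1, a junctional adhesion molecule, was at 155 against 328, while Vwf, the 1 marker above 0, was at 2.19 against 1.56 (0.49). Of 10 fibroblast markers, 3 were lower and none higher at 1.5-fold, with a median of -0.20 (-0.09 with median scaling) and sums of 2375 against 2656. Pdgfra and Pdgfrb, receptors for platelet-derived growth factor, were at -0.88 and -0.79, while Lum, the 1 marker above 0, was at 0.52. The 5 measured smooth muscle markers had a median of -0.40 and none past 1.5-fold, and sums of 261 against 290. The part of these cells in the lower values of the proteases and inhibitors was not tested.

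Markers of the lung epithelium were also measured beside the proteases. The 5 measured type I cell markers of the alveolus had a median of 0.10 (0.20 with median scaling), with 1, Cav1, at least 1.5-fold lower, and type II markers a median of -0.30 over 7, with 1, the surfactant protein gene Sftpd, higher and none lower (-0.50 and 1 lower with loess scaling). For club cells the median was -0.52 over 5 markers, with 1, Aldh1a1, lower, and ciliated cell markers a median of 0.13 over 3, with none past 1.5-fold. Sftpc, a surfactant protein gene that defines type II cells of the lung, was at 856 in Rosa26-Foxm1 and 1228 in wild-type lung. Another surfactant protein gene, Sftpb, was also lower, at 1437 against 1757. Sftpd, at 411 against 215, and Sftpa1, at 1757 against 1236, went the other way.

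Lymphoid markers also differed between the arrays. Of 5 measured B and plasma cell markers, 2 were higher and 1 lower at 1.5-fold, with summed intensities of 470 in Rosa26-Foxm1 and 117 in wild-type lung. Jchain, the joining chain of secreted antibodies, was at 411 against 49.3, Mzb1, a chaperone of plasma cells, at 17.5 against 5.80, and the B cell surface protein Ms4a1 at 5.26 against 10.2. Of 4 measured T cell markers, 2 were higher (1 with median scaling) and none lower, with a median of 0.47 and sums of 24.4 against 16.6. The part of lymphoid cells in the protease values was not tested.

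**Figure D4:**
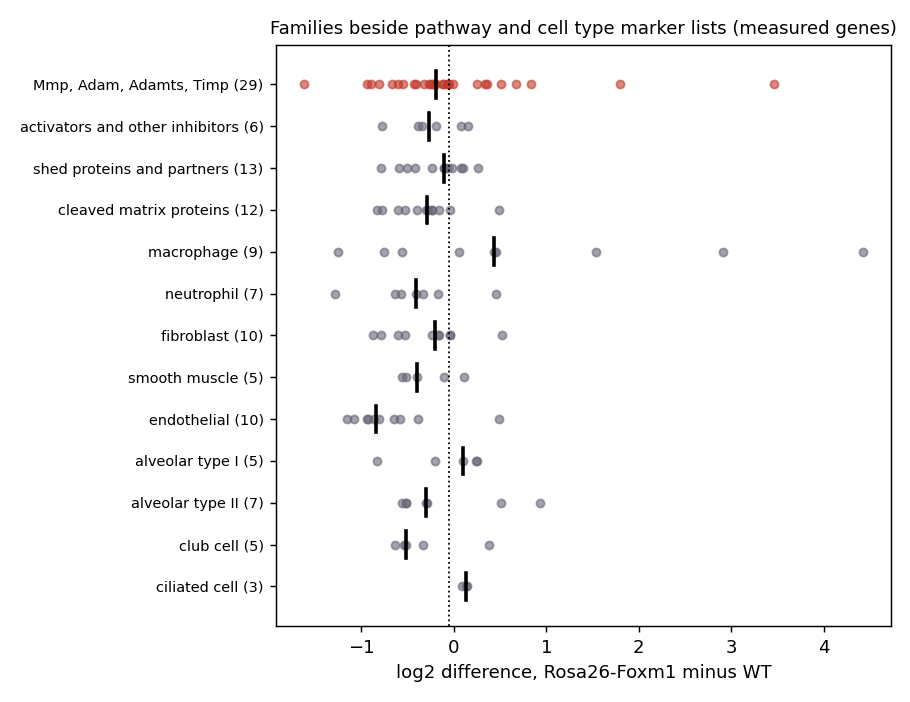
Log2 differences (Rosa26-Foxm1 minus wild type) of the 29 measured proteases and inhibitors (red) beside the measured genes of the pathway and cell type marker lists (grey), with the number measured in brackets, list medians as black bars and the median of all measured genes as a dotted line. The mast cell, B and plasma cell and T cell lists are not drawn. Of the lists drawn, the endothelial list has the lowest median, at -0.84, and the macrophage list spreads the widest, from -1.26 to 4.42.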

How the data were processed

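Lung RNA was measured on 2 one-colour arrays, and per the labels' protocols cRNA was labelled with digoxigenin by an Applied Biosystems chemiluminescent kit. The authors deposited linear intensities, 1 per probe, scaled to a median of 1.00 per array, and how they corrected background and scaled is not stated there, and no detection calls were used. Of 33012 probes, 14411 carry 1 gene in the platform annotation, 247 carry several and 18354 were not named here. Symbols were updated through the gene ID to RefSeq (GRCm38.p6), where all 64 member probes matched. Intensities were quantile normalised on the log2 scale, set to a floor at the 50th percentile of each array, and each gene took its brightest probe by mean (Python 3.11.15, pandas 2.3.3). Fold sizes against a value below the floor are lower bounds. Members named are those at least 1.5-fold apart, every measured Timp, the ends of each class, and probes in disagreement. The members and lists were chosen with earlier results of these data known. The steps were tested on simulated data. Alternatives were median scaling, the deposited intensities, loess with a span of 0.3, a floor at percentile 25 or 75 or none, the median over probes, genes above the floor on both arrays only, no Adamtsl genes, and 2-fold as the size. The number of arrays, 1 per group, limits the precision. No depth applies to arrays.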

Additional observations from a re-analysis of the deposited data

How the results depend on the processing

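No paired analysis was possible because each group had 1 array. The counts of members at least 1.5-fold apart depended on the floor and on the size. They were 4 higher and 6 lower, and became 9 higher and 9 lower with the floor at the 25th percentile (48 members measured), 13 and 13 with no floor (60 members), 1 and 3 with the floor at the 75th percentile (15 members) and 2 and 1 at 2-fold. Fewer or more members were measured by construction, and the shares of all genes at least 1.5-fold higher and lower were 10.9% and 12.4% at the 25th percentile, 13.2% and 14.4% with no floor, and 4.29% and 5.24% at the 75th. With no floor the median of the Mmp genes was 0.29 over 18 genes. No value of a member at least 1.5-fold apart changed its sign under any alternative that gave one. A lower floor and the median over probes cannot change a member whose single probe is above the floor on both arrays. Mmp9 (-0.56 with loess scaling) and Adamts8 (-0.54 as the median of its probes) were inside 1.5-fold under 1 alternative each. Mmp13, with wild type below the floor, was at 1.96 with the floor at the 25th percentile and 2.06 with no floor, Adam4 at 1.47 and Adam6a at -1.39 under both. Signal near the floor limits these values, since the noise of dim probes was not measured below it.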

Other observations

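Of 27 zinc metallopeptidases outside these families, listed after the members' values were seen, 14 were measured, with a median log2 difference of -0.10, 1 at least 1.5-fold higher and 2 lower (1 lower with median scaling), against 7.07% and 8.45% of all measured genes, so the counts are near the background. The aminopeptidase Anpep, known from myeloid cells and epithelium, was at 7.89 in Rosa26-Foxm1 and 4.91 in wild-type lung (0.69). The insulin-degrading enzyme Ide was at 5.89 against 10.2 (-0.79), and Ece1, the endothelin-converting enzyme of endothelial cells, at 229 against 360 (-0.65). Adamdec1, an ADAM-like protease of macrophages and dendritic cells, was at 4.12 against 4.11 (0.01), although Mmp12, Gpnmb and Trem2 were each more than 7-fold higher. Among mast cell markers, the tryptase Tpsb2 was at 30.2 against 15.1 (1.00), whereas the chymase Cma1 (-0.77) and the receptor Kit (-0.78) were lower, and the carboxypeptidase Cpa3 was below the floor on both arrays.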
